A study of Mus musculus with 2 samples.

Results

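The sites described here are strong peaks of open chromatin that were found in 1 of 2 libraries of mouse embryonic hindbrain. They were selected on measured values: a peak of replicate 1 with a deposited height of 41 or more that shared no base with any peak or hotspot of replicate 2, on chromosomes 1 to 19, X and Y. The rule chose 1461 of the 64511 replicate 1 peaks of that height (2.26%, exact Clopper-Pearson 95% interval 2.15% to 2.38%), out of 345049 analysed peaks in both libraries. Of the other strong replicate 1 peaks, 57855 overlapped a replicate 2 peak and are called shared, and 5195 lay in a replicate 2 hotspot without a peak. The chosen sites are called members below.

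The libraries are DNase-seq, which maps open chromatin by sequencing the ends left where the nuclease DNase I has cut it. Both are biological replicates of a single group, the hindbrain of healthy B6NCrl mouse embryos at day 11.5, with male and female embryos pooled. There is no treatment and no other condition, so no test across samples exists. All p-values below compare sites within these 2 libraries, and sites are not replicates.

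Replicate 1 had 150176 analysed peaks of 150 bp and replicate 2 had 194873, with median heights of 36 and 50 on a scale whose making the sources used here do not give. Of the 23 housekeeping genes listed, 22 had a promoter peak in each library. Of 39 Hox genes, which set position along the body axis from the hindbrain backwards, 20 had a promoter peak in replicate 1 and 32 in replicate 2. Of 36 other hindbrain patterning genes, 31 had a promoter peak in replicate 1 and 35 in replicate 2. The median percentiles among the library's peaks were 92.3 and 93.7, which leave out genes without a promoter peak in that library. The Hox genes of the hindbrain Hoxa2, Hoxb1 and Hoxb2 had none in replicate 1 and heights of 116, 90 and 102 in replicate 2. The hindbrain factor genes Egr2 (105 and 122) and Gbx2 (100 and 128) had one in both. A promoter peak was present at 13 of 14 midbrain and isthmus genes in replicate 1 and at all 14 in replicate 2. Their median percentiles were 92.9 and 92.1 and their summed heights 1048 and 1506, again without the genes that lack a peak in that library. Otx2 among them stood at 101 (percentile 94.7 of the library's peaks) in replicate 1 and at 107 (percentile 90.3) in replicate 2. En1, En2 and Nr4a2 also had a higher percentile in replicate 1. All other genes of this list with a promoter peak in both libraries had a lower one, such as Pax2 (82.2 and 94.7) and Fgf8 (59.0 and 80.6). The part of such differences in the results below was not tested, and library and dissection cannot be told apart.

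Enhancers are stretches of open chromatin, often far from genes, that transcription factors bind through short DNA words to raise transcription in particular cells, whereas many promoters are open in most cell types. The word TAATCC, which reads GGATTA on the other strand, is the known recognition word of a class of homeodomain factors that includes OTX1, OTX2, CRX and GSC. OTX2 marks the forebrain and midbrain of the early embryo, a domain that ends at the border with the hindbrain. Otx2 is also among the roof plate, floor plate and choroid plexus genes listed for the results below.

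The sequences that carry the main finding are shown first, on the plus strand of mm10 (GRCm38). The first 5 are the highest members whose peak touches no annotated exon. The other 4, at Tal2, Otx1, Pax3 and Sorcs2, were chosen after their values were seen, the last as a member with 3 matches. Capitals mark GGATTA or its reverse complement TAATCC, and the site nearest to Matn1 holds neither.
Axin1 site, chr17:26132516-26132665, plus strand: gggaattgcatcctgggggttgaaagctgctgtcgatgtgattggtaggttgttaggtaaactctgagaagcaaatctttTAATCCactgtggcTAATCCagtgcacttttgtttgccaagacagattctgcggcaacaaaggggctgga
Tll2 site, chr19:41177436-41177585, plus strand: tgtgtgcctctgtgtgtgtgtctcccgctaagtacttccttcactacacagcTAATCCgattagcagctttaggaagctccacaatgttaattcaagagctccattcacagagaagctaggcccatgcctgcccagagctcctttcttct
Mab21l2 site, chr3:86572696-86572845, plus strand: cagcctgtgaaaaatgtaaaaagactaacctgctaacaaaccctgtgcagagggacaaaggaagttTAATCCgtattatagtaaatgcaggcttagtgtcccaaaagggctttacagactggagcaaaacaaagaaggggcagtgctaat
Matn1 site, chr4:131075476-131075625, plus strand: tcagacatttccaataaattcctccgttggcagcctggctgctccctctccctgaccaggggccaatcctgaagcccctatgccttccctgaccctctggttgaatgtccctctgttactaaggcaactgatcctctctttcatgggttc
Tas2r134 site, chr2:51733376-51733525, plus strand: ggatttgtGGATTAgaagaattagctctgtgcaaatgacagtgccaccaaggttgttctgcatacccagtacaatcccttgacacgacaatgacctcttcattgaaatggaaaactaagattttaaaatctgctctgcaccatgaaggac
Tal2 site, chr4:53782756-53782905, plus strand: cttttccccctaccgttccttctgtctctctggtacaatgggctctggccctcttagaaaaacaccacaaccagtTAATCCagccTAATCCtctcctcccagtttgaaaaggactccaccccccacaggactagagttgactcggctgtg
Otx1 site, chr11:22037356-22037505, plus strand: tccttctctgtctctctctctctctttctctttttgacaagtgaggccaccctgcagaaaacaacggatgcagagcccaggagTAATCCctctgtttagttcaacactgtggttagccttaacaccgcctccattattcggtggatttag
Pax3 site, chr1:78143516-78143665, plus strand: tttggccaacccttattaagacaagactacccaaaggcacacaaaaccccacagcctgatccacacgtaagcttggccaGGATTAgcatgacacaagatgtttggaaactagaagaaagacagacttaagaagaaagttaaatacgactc
Sorcs2 site, chr5:36382396-36382545, plus strand: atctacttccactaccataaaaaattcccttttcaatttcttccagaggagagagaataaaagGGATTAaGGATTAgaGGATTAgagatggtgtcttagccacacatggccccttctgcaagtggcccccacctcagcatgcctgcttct

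The word was present in 570 of the 1461 members (39.0%, exact interval 36.5% to 41.6%). It was noticed in the sequences of the 12 highest members, 9 of which hold it, and was then scored beside all 2080 words of 6 bases, each counted together with its reverse complement. Among strong shared peaks 2539 of 57855 held it (4.39%), or 4.85% when the shared peaks were weighted to the members' heights in bins of 10. The odds ratio was 12.7 (95% interval 11.25 to 14.3), and GGATTA had the smallest p of all 2080 words. With bins of GC content of 5 percentage points in place of height, the odds ratio was 9.39 (exact Mantel-Haenszel test, Benjamini-Hochberg adjusted p = 5.76e-257), and GGATTA again ranked first. Without the 12 highest members it was 12.5, and with promoter peaks left out on both sides it was 10.9. In the other settings tried the word also ranked first, with odds ratios between 2.95 and 22.1.

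**Figure D1:**
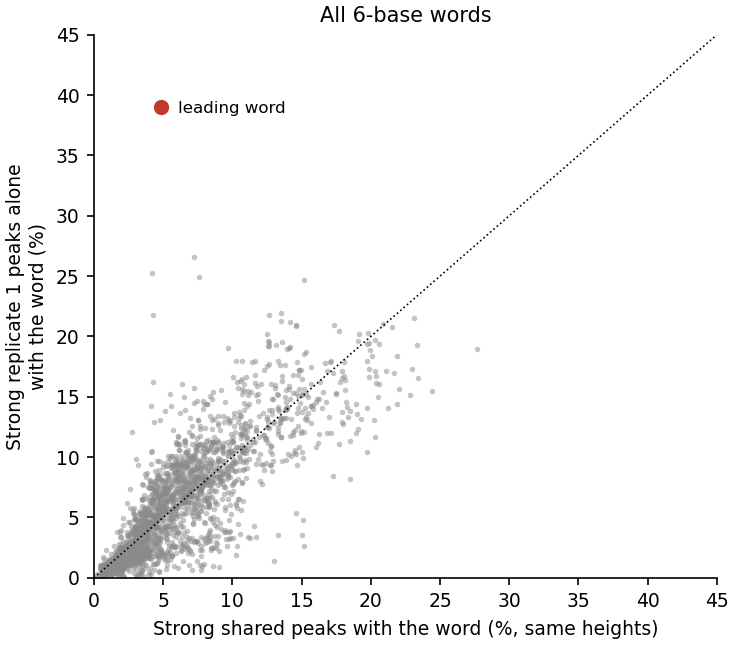
Share of strong replicate 1 peaks found in replicate 1 alone (vertical axis, %) against the share of strong shared peaks at the same heights (horizontal axis, %) that hold each of 2080 words of 6 bases, 1 point a word. The leading word, in red, was in 39.0% of the former and 4.85% of the latter, and lies apart from the other points; the dotted line marks equal shares.

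Of the 2080 words, 528 were higher in the members than in shared peaks (25.4%) and 534 were lower (25.7%), so a called difference as such was common. The words next in rank were pieces of the same stretch. CTAATC was in 369 members, GATTAA in 318, AATCCT in 388 and AATCCC in 364. Of the members with CTAATC 74.3% also held GGATTA, and of those with AATCCC 72.3%, against 45.1% and 24.0% of the shared peaks with these words. Among the 891 members without GGATTA, the leading words were AGATTA, found in 166, and GGCTTA, found in 151. Counted after this scan, 865 members (59.2%, interval 56.6% to 61.7%) held at least 1 of these 3 words. The same count gave 13.8% of shared peaks weighted to the same heights and 13.1% of peaks in a replicate 2 hotspot only. AGATTA and GGCTTA were picked in these same members, which can raise the members' share, and the interval does not cover that choice.

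The share of members with the word was larger at larger heights. It was 31.9% (203 of 637) at heights of 41 to 45, 125 of 347 members at 46 to 50 and 48.3% (146 of 302) at 51 to 60. At 61 to 70 it was 51.7% (61 of 118), and at 71 to 100 it was 61.4% (35 of 57, interval 47.6% to 74.0%). The intervals of the lowest and the highest of these classes did not overlap. The highest class includes the 12 highest members, in which the word was noticed, so that contrast partly rests on them. The classes up to 70 hold none of these 12. Shared peaks held the word in 4.99% of cases at 41 to 45 and in 4.36% at 71 to 100. Peaks in a replicate 2 hotspot without a peak held it in 296 of 5195 cases (5.70%). The mirrored class, replicate 2 peaks of height 57 or more that overlap nothing of replicate 1, held it in 272 of 10833 cases (2.51%), against 3.06% of strong replicate 2 peaks shared with replicate 1. A height of 57 cuts off the top 42.9% of replicate 2 peaks, as 41 does for 43.0% in replicate 1.

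**Figure D2:**
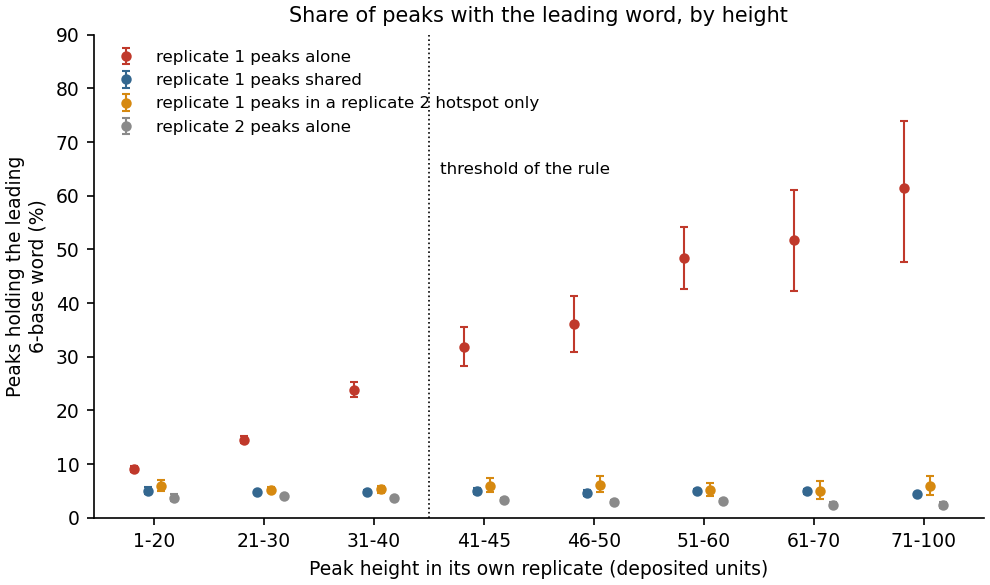
Share of peaks holding the leading word or its reverse complement (vertical axis, %) by peak height in the peak's own replicate (horizontal axis, deposited units), with exact 95% intervals. Replicate 1 peaks alone (red) go from 9.14% at heights of 1 to 20 to 61.4% at 71 to 100, while the shared, hotspot-only and replicate 2 peaks lie between 2.34% and 6.15%.

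Within the members the word lay towards the middle of the peak. Of 660 matches, 318 (48.2%, interval 44.3% to 52.1%) were centred within 25 bp of the peak's centre and 528 (80.0%) within 50 bp. In shared peaks 901 of 2650 matches (34.0%) lay within 25 bp. A single match was present in 485 members, 80 had 2 and 5 had 3. Of the 90 neighbouring pairs of matches in members, 55 had both on the same strand, and their median spacing was 28 bp, against 43 bp in 111 pairs of shared peaks. The base before TAATCC was C in 42.0% and G in 9.98% of the members' matches, against 36.1% and 18.3% in shared peaks.

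**Figure D3:**
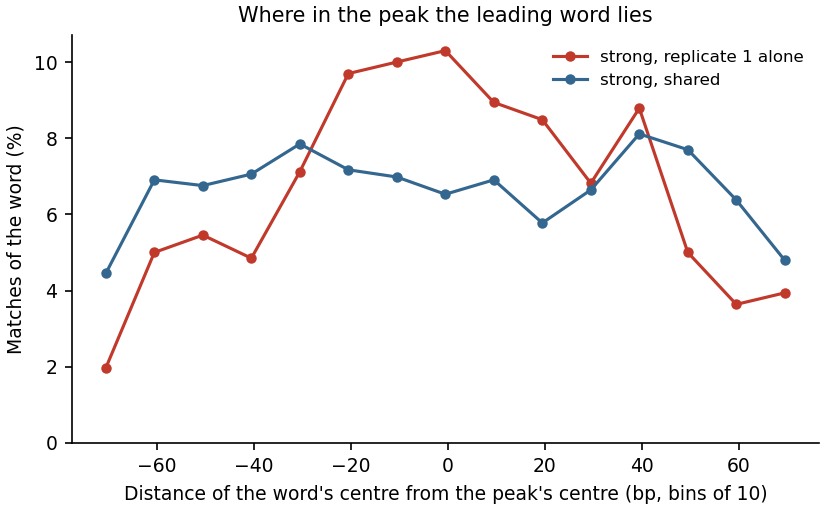
Position of each match of the leading word relative to the centre of its 150 bp peak (horizontal axis, bp, bins of 10) as a share of all matches (vertical axis, %). In strong peaks of replicate 1 alone (red, 660 matches) 10.3% lay in the central bin, and in shared peaks (blue, 2650 matches) 6.53% did.

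Every position class of the members held the word at a far higher share than the same class of shared peaks. It was in 311 of 802 in introns (38.8%), 233 of 586 between genes (39.8%), 16 of 52 in exons (30.8%) and 10 of 21 at promoters (47.6%). In shared peaks the shares were 5.98%, 5.60%, 3.30% and 2.12%. Members with the word had a median height of 49 and those without it 46, with a median GC content of 47.3% in both.

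The word also went with the balance between the libraries at shared peaks, which are outside the member set but come from the same 2 libraries. Ranked within each library, 1707 of 2539 strong shared peaks with GGATTA had a higher percentile in replicate 1 (67.2%, interval 65.4% to 69.1%), against 22470 of 55316 without it (40.6%). The odds ratio over height bins was 3.10. With promoter peaks left out the shares were 72.9% and 51.4% (odds ratio 2.61). This comparison was added after the word had been seen in the members. It rests on the same peak heights as the rule and is a description, not independent support. Bins of GC content were not used in it.

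By position, 802 members lay in introns of a gene of any type (54.9%), 586 between genes (40.1%) and 52 in exons (3.56%). Only 21 lay within 1 kb of the start of a protein-coding gene, the promoter class (1.44%, interval 0.892% to 2.19%). Shared peaks weighted to the same heights had 21.6% at promoters (odds ratio 0.0528; exact Mantel-Haenszel test, adjusted p = 3.46e-115) and 39.7% in introns (odds ratio 1.85; exact test, adjusted p = 2.39e-29). The share between genes was 32.5% in shared peaks (odds ratio 1.39; exact test, adjusted p = 1.19e-08), but over GC bins its odds ratio was 0.969 (exact test, adjusted p = 0.807). The exon share was 6.15% in shared peaks (odds ratio 0.562; exact test, adjusted p = 4.47e-05), a call that was lost over GC bins (0.793; exact test, adjusted p = 0.239). The median distance to the nearest protein-coding start was 55561 bp in members and 7371 bp in shared peaks. It passed 100 kb for 494 members (33.8%) and for 12.3% of shared peaks. With the peaks in a replicate 2 hotspot counted in as well, the promoter odds ratio turned to 3.33 and that of introns to 0.551, since 3288 of those 5195 peaks (63.3%) were at promoters.

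**Figure D4:**
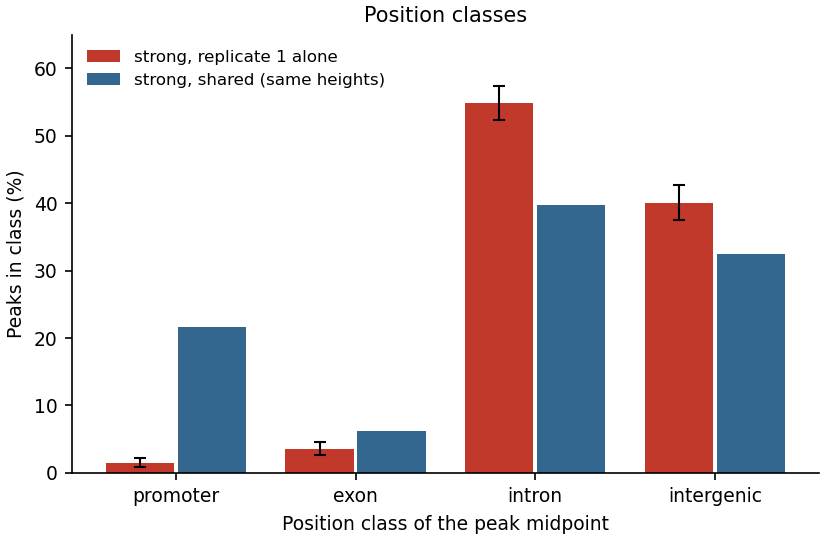
Share of peaks in each position class (vertical axis, %), by peak midpoint, for the 1461 strong peaks of replicate 1 alone (red, bars with exact 95% intervals) and for strong shared peaks weighted to the same heights (blue). Promoters hold 1.44% of the former and 21.6% of the latter, and introns 54.9% and 39.7%.

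The members were poorer in G and C than shared peaks. Their median GC content was 47.3% (quartiles 44.0% and 51.3%) against 56.0%. A GC content of 60% or more was found in 39 members (2.67%) and in 24.8% of shared peaks at the same heights (odds ratio 0.0831; exact test, adjusted p = 1.48e-117). A CpG observed to expected ratio of 0.6 or more, as in CpG islands, was found in 86 members (5.89%) against 23.7% (odds ratio 0.200; exact test, adjusted p = 1.78e-71). With the peaks in a replicate 2 hotspot counted in as well, both turned, to odds ratios of 1.57 for GC content and 2.22 for the CpG ratio.

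Repeated sequence was rare in the members. The central 31 bases occurred more than once in the genome for 4 members (0.274%, interval 0.0747% to 0.700%), against 1.70% of shared peaks at the same heights (odds ratio 0.161; exact test, adjusted p = 3.01e-06). Soft-masked repeats covered 50% or more of 30 members (2.05%) against 3.63% (odds ratio 0.558; exact test, adjusted p = 0.00208). Without height bins the masked shares were 2.05% and 2.08%, and that call was lost (odds ratio 0.988). No soft-masked base at all was found in 893 members (61.1%). Both members nearest to Serpinb1a, 16066 bp and 2066 bp from its start with heights of 74 and 54, were among the 4. They are shown on the plus strand because they have a run of 29 bases in common. Nothing is in capitals here, although the upstream site holds 1 match of TAATCC.
Serpinb1a upstream site, chr13:32867176-32867325, plus strand: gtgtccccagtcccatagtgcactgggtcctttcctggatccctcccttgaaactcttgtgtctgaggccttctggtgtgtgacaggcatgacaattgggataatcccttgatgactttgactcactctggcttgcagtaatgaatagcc
Serpinb1a near site, chr13:32853176-32853325, plus strand: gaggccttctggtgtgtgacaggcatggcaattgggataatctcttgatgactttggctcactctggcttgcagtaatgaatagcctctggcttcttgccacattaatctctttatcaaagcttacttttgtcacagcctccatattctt

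Of 35 motifs searched on both strands, 9 were higher in the members (25.7% of those tested) and 8 were lower (22.9%). SOX words, which HMG-box factors of neural progenitors bind, were among the higher ones. ACAAAG was in 360 members (24.6%) against 15.2% of shared peaks at the same heights (odds ratio 1.83; exact test, adjusted p = 2.84e-19). ACAATG was in 217 (14.9%) against 8.54% (odds ratio 1.87; exact test, adjusted p = 7.12e-14). The octamer ATGCAAAT of POU factors was in 49 (3.35%) against 1.34% (odds ratio 2.56; exact test, adjusted p = 1.55e-07). The GATA word AGATAA was in 121 (8.28%) against 4.53% (odds ratio 1.91; exact test, adjusted p = 4.5e-09), and the MEIS word TGACAG in 223 (15.3%) against 11.8% (odds ratio 1.35; exact test, adjusted p = 0.000276). These 5 were also called over GC bins, with odds ratios between 1.3 and 1.81. With the peaks in a replicate 2 hotspot counted in as well, none of the 5 was called higher: the odds ratios were 1.00 for ACAAAG, 0.913 for ACAATG, 1.22 for ATGCAAAT, 1.05 for AGATAA and 0.865 for TGACAG, the last called lower (exact test, adjusted p = 0.00225). The MEIS call was also lost at heights of 58 or more (odds ratio 1.46; exact test, adjusted p = 0.14). The homeobox word TAATTA was in 52 members (3.56%) against 2.40% (odds ratio 1.5; exact test, adjusted p = 0.016) and lost its call over GC bins (1.05). The remaining higher ones were the AP-1 word TGANTCA, the NFY word CCAAT and the TATA box word, and each lost its call over GC bins, with odds ratios of 1.23, 0.975 and 0.908. The E-box words CAGCTG and CAGATG were called over GC bins only. CAGCTG was higher there (odds ratio 1.43, exact test, adjusted p = 2.93e-05) and CAGATG lower (0.771, exact test, adjusted p = 0.00462). ACAAAG was in 25.3% of the members with GGATTA and in 24.2% of those without.

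The consensus of CTCF, the factor that anchors chromatin loops, was in 18 members (1.23%, interval 0.732% to 1.94%) and in 14.8% of shared peaks at the same heights (odds ratio 0.0722; exact test, adjusted p = 6.06e-72). It was in 128 of the 5195 peaks in a replicate 2 hotspot only (2.46%; against the members over height bins, exact test, adjusted p = 0.284). The mirrored replicate 2 class was also poor in it, with 67 of 10833 peaks (0.619%) against 13.5% of strong replicate 2 peaks shared with replicate 1. The CTCF share was thus low in peaks found in 1 library alone, in either direction. It was also low in replicate 1 peaks in a replicate 2 hotspot only, so it was not particular to presence in 1 library. The other lower motifs were the ETS word CCGGAAG, the SP word GGGCGG, the KLF word CACCC, the ZIC word CAGCAGG, the E-box CACGTG and the consensus sequences of REST and NRF1. Over GC bins the SP word (odds ratio 0.766), the KLF word (0.918), CACGTG (0.785) and REST lost their calls (exact test, adjusted p = 0.0865, 0.342, 0.364 and 0.0581). REST and NRF1 had no match among the members, for which the exact interval reaches 0.252%. The highest members with the GATA and the POU word show these matches, on the plus strand. The Barhl2 site also holds 1 match of TAATCC, left in lower case.
Barhl2 site with TTATCT in capitals, chr5:106320136-106320285, plus strand: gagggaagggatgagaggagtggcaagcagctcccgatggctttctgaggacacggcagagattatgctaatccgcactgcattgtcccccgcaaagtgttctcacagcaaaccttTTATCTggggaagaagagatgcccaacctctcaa
Rpf1 site with ATGCAAAT in capitals, chr3:146528476-146528625, plus strand: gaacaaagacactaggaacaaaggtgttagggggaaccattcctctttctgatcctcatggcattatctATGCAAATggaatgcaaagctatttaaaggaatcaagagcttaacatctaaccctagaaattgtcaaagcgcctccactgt

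Member heights ran from 41 to 94, with a median of 47 (quartiles 43 and 53), and 637 (43.6%) were at 45 or less. At the threshold, 165 members had a height of 41 and 149 had 42, while among the peaks alone just outside it 179 had 40 and 193 had 39. The 10 members just inside all had a height of 41. The share with the word was 27.3% at 41 and 35.2% at 40. The distance from a member to the nearest replicate 2 hotspot had a median of 4334 bp. It was over 10 kb for 386 members (26.4%), and 221 (15.1%) had a replicate 2 peak or hotspot within 500 bp. In replicate 1 itself, 836 members (57.2%) lay in hotspots at the top value of the deposited score, against 86.9% of shared peaks. Their hotspots had a median width of 333 bp, against 490 bp.

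The highest member, at height 94, lay 6097 bp from the start of Axin1, a scaffold that holds back Wnt signalling, and had 2 matches of the word. The nearest replicate 2 hotspot was 1217 bp away. The next, at 92, lay in an exon of Ap5m1 (chr14:49089756-49089905). Height 88 was reached in an intron of Tll2, a secreted metalloprotease, and 87 in an intron of Lrba, 24488 bp from the start of Mab21l2, a gene of eye and midbrain development. Both were far from replicate 2 signal, with the nearest hotspots 12454 bp and 21136 bp away. Others of the first 10 were nearest to Matn1 (86), Tas2r134 (84), the neuronal homeobox gene Barhl2 (83), Lgi1 (83) and Efna2 (82). Of the first 10 members the Matn1 site alone lacked the word. The highest member on the X chromosome had a height of 64 and held the word, and the single member on Y, at 41, did not.

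The 21 promoter members were led by Sgms1, a sphingomyelin synthase gene, at height 72. No gene of the 21 lists of marker genes had a member at its promoter.

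Members lay next to each other more often than their share among strong peaks. The next strong replicate 1 peak along the chromosome was also a member for 154 of 1461 members (10.5%, interval 9.01% to 12.2%) and for 1307 of 63029 other strong peaks (2.07%). With promoter peaks left out these shares were 11.25% and 3.23%. With neighbours within 1 kb counted once, the members' share was 6.79%, for which no matching share of other strong peaks is given. Another member was within 10 kb of 209 members (14.3%) and within 100 kb of 461 (31.6%), and 8 members shared a base with another member. Of 2424 windows of 1 Mb with a strong peak, 916 held a member and 19 held 5 or more, with 109 members in all. On the autosomes the share of strong peaks that were members ran from 1.67% (chromosome 11) to 3.15% (chromosome 3). On X it was 0.782% (10 of 1278, interval 0.376% to 1.43%).

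The window with Efna5 (chr17:62000001-63000000) held 8 members among 26 strong peaks (30.8%, interval 14.3% to 51.8%). The window with Otx2 (chr14:48000001-49000000) held 8 of 82 (9.76%), at heights of 43 to 76, and that with Tcf7l2, a Wnt effector gene (chr19:55000001-56000000), 8 of 62 (12.9%), at 42 to 50. GGATTA was in 1 of these 24 members, in the Otx2 window. The 5 windows tied at 6 members lay around Mab21l2, Efna2, Pax3, Otx1 and Fam222a, and 12 of their 30 members held the word. In the Efna2 window these were 6 of 169 strong peaks (3.55%, interval 1.31% to 7.57%). That interval holds the 2.26% of all strong peaks, so this window does not show a higher share. The shares of the other windows with 6 members ran from 7.79% (Fam222a, 6 of 77) to 13.6% (Pax3, 6 of 44).

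**Figure D5:**
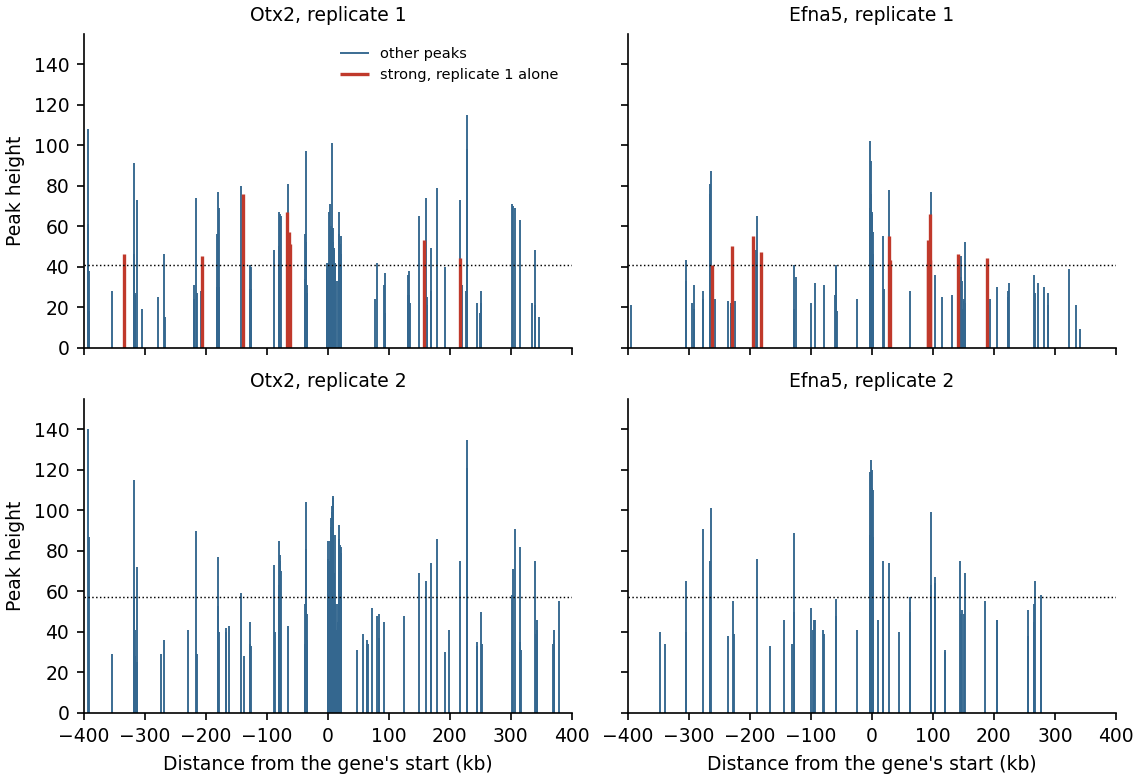
Peak height (vertical axis, deposited units) against distance from the gene's start (horizontal axis, kb, downstream positive) within 400 kb of Otx2 (left) and Efna5 (right), for replicate 1 (top) and replicate 2 (bottom). Red lines are the 8 members at Otx2 (heights 44 to 76) and the 12 at Efna5 (41 to 66), blue lines are all other peaks, and dotted lines mark heights of 41 and 57.

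A protein-coding start lay within 100 kb of 967 members, which were nearest to 795 genes, and 670 of these genes had 1 member. Efna5, an ephrin ligand that guides growing axons, had the most, 6 of its 21 strong peaks. All 6 lay in its own introns, 27213 to 94693 bp from the start, at heights of 66, 43, 53, 42, 43 and 55, and none held the word. Its promoter had heights of 67 in replicate 1 and 120 in replicate 2, so the gene's start was open in both. Efna2, another ephrin gene, had 4 members of 9 strong peaks, all between genes, at heights of 56, 60, 82 and 55, and 3 of them held the word.

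Among the other genes with most members, Tal2, a bHLH factor gene of midbrain neurons, had 5 members of 9 strong peaks (55.6%), 3126 to 9786 bp from its start, at heights of 41, 41, 65, 75 and 51. The pair at 65 and 75 held 2 matches of the word each. Pax3, which marks dorsal progenitors of the neural tube, had 5 of 26 (19.2%), all in its introns, at 56, 43, 41, 48 and 74, and 3 held the word. Otx1 had 4 of 32 (12.5%), all in introns of the neighbouring gene Ehbp1, 33156 to 56136 bp away, at 45, 73, 62 and 55, and 1 held the word. Mab21l2 had 4 of 10, all in introns of Lrba, at 51, 52, 67 and 87, and 2 held the word. Promoter peaks were present in both libraries at each of these genes: Tal2 stood at 68 and 105, Pax3 at 86 and 115, Otx1 at 88 and 113, and Mab21l2 at 84 and 104.

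Fam222a, Adgrl2, Fgfr2 and Tmco5 complete the 10 genes chosen, with ties broken by the highest member. Frmd4a, Lmo1 and Tcf7l2 also had 4 members. Fam222a had 5 members at 45, 63, 41, 44 and 55, one of them in its promoter window. Adgrl2, a latrophilin adhesion receptor gene, had 5 at 44, 41, 42, 43 and 57, and the fibroblast growth factor receptor gene Fgfr2 had 5 at 52, 55, 45, 53 and 49. Tmco5 had 4 at 53, 70, 67 and 67, crowded between 69957 and 70797 bp from its start. Of the 59 members of the 13 genes with 4 or more, 17 held GGATTA.

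A gene of the marker lists was the nearest within 100 kb for 47 members (3.22% of all 1461, interval 2.37% to 4.26%), against 3.06% of shared peaks and 17.8% of the mirrored replicate 2 class. Of the sites with any start within 100 kb, these were 47 of 967 members (4.86%, interval 3.59% to 6.41%), 3.48% of shared peaks (3.33% to 3.65%) and 20.4% of the mirrored class, and these differences were not tested. Hindbrain patterning genes had 12 members of 411 strong peaks (2.92%, interval 1.52% to 5.05%), with 2 each at Dbx1, Irx3, Meis1 and Pax6. Neural progenitor genes had 9 of 245 (3.67%), of which Pax3 had 5. Midbrain and isthmus genes had 4 of 158 (2.53%, interval 0.694% to 6.36%), 3 at Otx2 and 1, of height 72 and with the word, at En2. The same 3 sites at Otx2 were the only members of the roof plate, floor plate and choroid plexus list (3 of 142, 2.11%). Glial genes had 6 of 68 (8.82%, interval 3.31% to 18.2%), at Olig1, Olig2 and the myelin gene Mbp. Hox genes had 3 of 49 (6.12%). The lists of mesenchyme, erythroid, myeloid, heart and germ cell genes had no member among 126, 35, 34, 34 and 18 strong peaks. The upper limits of their exact intervals ran from 2.885% (mesenchyme) to 18.5% (germ cells), above the 2.26% of all strong peaks. These lists therefore do not show a lower share. Limb and posterior body genes had 5 of 84 (5.95%), and skeletal muscle and somite genes 5 of 86 (5.81%), the same 5 at Pax3. Surface epithelium genes had 2 of 35 (5.71%), and liver, gut and lung genes 2 of 58 (3.45%). Forebrain and eye genes had 1 of 112 (0.893%).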

How the data were processed

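DNase-seq libraries of 2 biological replicates were analysed from the deposited lists of peaks and hotspots, which were called in each replicate separately on mm10, per the file headers and the text beside the files. The peak height is a score of the authors' making that they deposited without a stated scaling, and the value deposited for each hotspot is the −log10 of a false discovery rate, with the strongest written as 100. The sources used here name no aligner, caller, filter or read depth, so intervals cover counting error over sites only. No whole-series column was left unused.

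Peaks off chromosomes 1 to 19, X and Y were dropped, as were repeated entries (32 and 60). Sequences came from the GRCm38 genome of RefSeq and genes from the basic GENCODE M21 set, with 41433 protein-coding starts. Members and shared peaks were compared with a two-sided exact conditional Mantel-Haenszel test over height bins of 10, with Benjamini-Hochberg adjustment over 43 features (4 position classes, 4 sequence features and 35 motifs) or over 2080 words, at a threshold of 0.05. The test was checked on simulated data and against R. The tools were numba 0.67.0, scipy 1.17.1, matplotlib 3.10.9, numpy 2.4.6 and pandas 2.3.3 under Python 3.11.15.

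Members, lists, motifs and tests were chosen with earlier results of these data known. The text names the 10 highest members, the 10 genes with most members nearest within 100 kb (ties by highest member), list genes with a member at the promoter, the highest members on X and Y, and the windows with most members, of which some genes are not reported here. The 21 lists held 407 entries: Hox, hindbrain patterning, midbrain and isthmus, forebrain and eye, neural progenitor, neuron, glia, neural crest, mesenchyme, endothelium, erythroid, myeloid, muscle, heart, liver and gut, limb, surface epithelium, roof and floor plate, germ cell, housekeeping and stress genes. Alternatives were other height thresholds, overlap rules, bins, promoter windows and comparison peaks. The scan of words, the near forms of GGATTA, and the settings without promoter peaks, without the 12 highest members, with joint height and GC bins, and for neighbours within 1 kb were added after the data were seen.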

Additional observations from a re-analysis of the deposited data

Results flagged for a closer look

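Replicate 1 peaks below a height of 41, which the rule leaves out, carried the same word. Of 28051 such peaks that overlapped no replicate 2 peak or hotspot, 3757 held GGATTA (13.4%, exact interval 13.0% to 13.8%), against 2089 of 43461 low shared peaks (4.81%, 4.61% to 5.01%). The share alone went from 9.14% at heights of 1 to 20 to 23.8% at 31 to 40. These peaks were looked at because they lie outside the member set.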

How the results depend on the processing

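Of 259 recomputed values, 215 kept their direction and call or, where there was no test, stayed within 1.5 times a count or within the interval of a share. An odds ratio that kept its call could still move in size. The odds ratio of GGATTA kept its direction and call in all 13 alternatives (2.95 to 22.1). Counting replicate 2 peaks only, without hotspots, gave 6656 sites. Odds ratios then turned to 3.33 for promoters, 0.551 for introns, 0.529 between genes, 1.57 for high GC, 2.22 for high CpG, 0.913 for SOX ACAATG, 0.865 for MEIS and 0.927 for TAATTA, with 2 motifs higher. At a height of 36 or more there were 2638 members, 13.3% followed by a member. At 58 or more there were 226, 4.42% followed by a member, with 4 motifs higher and 4 lower, 205 words higher and 185 lower, and the calls of repeated bases (0.397) and masked sequence (0.93) were lost. Over GC bins exons (0.793) lost their call, the share between genes turned to 0.969, 5 motifs were lower, and 253 words were higher and 304 lower. Over joint height and GC bins 216 words were higher and 255 lower, and TAATTA turned to 0.970. Without bins the masked share lost its call (0.988). With peaks within 1 kb counted once, the share between genes lost its call (1.11) and 6.79% of members were followed by a member. Against peaks in a replicate 2 hotspot only, repeated bases (0.362) lost their call, masked sequence turned to 1.58, 5 motifs were lower and 795 words were higher. At promoters only, 0 members were nearest to a list gene. The cause was not tested, other than that 63.3% of the hotspot-only peaks were at promoters and that fewer members enter at 58.

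Leaving out a replicate cannot give a value, since the rule needs both libraries. No paired analysis was possible because there is 1 group. GC content was not tested over GC bins. Read depth is unknown, and the libraries differ in their number of peaks. A site's absence from replicate 2 says only that no peak or hotspot was listed there.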

Other observations

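Another 11 windows of 1 Mb held 5 members each, and 14 of their 55 members held GGATTA. They lay around gene groups of neural and craniofacial development, among others Irx3, Irx5 and Irx6 (5 of 47 strong peaks, 3 with the word) and Olig1 and Olig2 (5 of 69, 2 with the word). Gene families by name were not prominent: Zfp genes were nearest to 18 members (1.23%) against 1.78% of shared peaks, and Olfr genes to none against 0.188%. In the mirrored replicate 2 class the PBX-HOX word TGATTGAT was in 156 of 10833 peaks (1.44%), against 0.357% of strong replicate 2 peaks shared with replicate 1. It was in 8 of 1461 members (0.548%), against 0.292% of shared replicate 1 peaks. Over height bins the members' odds ratio was 1.47, which was not called (exact test, adjusted p = 0.356).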
